A study of Mus musculus with 6 samples.

Results

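The genes described here make, convert and break down prostaglandins in cultured mouse white adipocytes. They were chosen by name: Pla2g4a, Ptgs1, Ptgs2, Ptges, Ptges2, Ptges3, Ptgis, Hpgd and Ptgr1, 9 of the 13734 genes with a row in the expression table. All 9 had a row, and 8 reached at least 1 CPM (reads of a gene scaled to library size) in at least 3 libraries and were tested, as were 10054 genes in all. Hpgd did not reach that level.

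The cells were 1 immortalized line of subcutaneous white preadipocytes with both Dicer1 alleles floxed (Dicer1 flox/flox) and a Cre-ERT2 recombinase that tamoxifen switches on. Dicer1 encodes the enzyme that cuts miRNA precursors into mature miRNAs. Every culture was differentiated with insulin, rosiglitazone, T3, IBMX, dexamethasone and, for the first 2 days, 0.125 mM indomethacin, which is itself an inhibitor of cyclooxygenase enzymes. From day 6 the DICER_KO cultures (3 libraries) had 10 µM 4-hydroxytamoxifen (4-OHT) for 48 h and the control cultures (3 libraries) had ethanol, so the controls carry the same floxed alleles and Cre although their titles call them WT. All cultures then had 10 µM of the beta-adrenergic agonist isoproterenol for 6 h. No unstimulated group is part of the comparison, and the deletion and 4-OHT cannot be told apart. The labels do not say whether replicates were differentiated separately, so p-values measure only the spread between these libraries.

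Prostaglandins are short-range lipid signals. Cytosolic phospholipase A2 frees arachidonic acid from membranes, cyclooxygenases turn it into prostaglandin H2, and terminal synthases turn that into prostaglandin E2, prostacyclin and others, until a dehydrogenase and reductases inactivate them. In white fat prostaglandin E2 is known for restraining lipolysis, prostacyclin for promoting adipocyte differentiation, and the inducible cyclooxygenase Ptgs2 for its response to beta-adrenergic stimulation.

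Ptgs2 had the largest difference among the 8 tested genes, so the sequences shown are those of its transcript and promoter, with the promoter of its isozyme Ptgs1 for comparison. Promoters are RefSeq windows of GRCm38.p6, from 250 bases before to 50 bases after the start that the RefSeq table gives, and 8 of the 9 genes matched one (Ptgis did not). Capitals mark matches, on either strand, to 7 motifs: the CRE half-site CGTCA and full CRE TGACGTCA (bound by CREB factors, which cyclic AMP activates), the E-box CACGTG, the C/EBP palindrome TTGCGCAA, the TATA motif TATAA, its variant TTAAAA, and the GC box GGGCGG. The Ptgs2 window lies at chr1:150099781-150100080, plus strand, and the Ptgs1 window at chr2:36230176-36230475, plus strand. The Ptgs1 window lies inside the gene (chr2:36216742-36258593), so the outermost annotated start of Ptgs1 was not scanned.
Ptgs2 promoter: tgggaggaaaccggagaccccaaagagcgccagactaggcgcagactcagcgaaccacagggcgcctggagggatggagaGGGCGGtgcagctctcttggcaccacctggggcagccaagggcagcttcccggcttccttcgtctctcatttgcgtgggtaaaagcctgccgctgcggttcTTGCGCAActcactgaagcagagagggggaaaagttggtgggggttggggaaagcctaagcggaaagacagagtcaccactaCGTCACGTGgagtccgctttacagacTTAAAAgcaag
Ptgs1 promoter: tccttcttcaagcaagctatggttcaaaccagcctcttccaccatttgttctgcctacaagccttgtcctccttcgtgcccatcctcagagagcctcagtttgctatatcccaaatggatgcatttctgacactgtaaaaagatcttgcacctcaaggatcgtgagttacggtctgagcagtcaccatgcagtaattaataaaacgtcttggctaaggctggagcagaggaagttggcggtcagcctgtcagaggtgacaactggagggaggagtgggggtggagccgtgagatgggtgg

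In the Ptgs2 window the GC box starts at position -170 and the C/EBP palindrome at -69. The CRE half-site at 14 and the E-box at 17 overlap, and TTAAAA starts at 40, after the start as the table gives it. Of 10104 promoter windows of tested genes, 0.327% hold the C/EBP palindrome, 29.7% the CRE half-site, 10.0% the E-box, 12.8% TTAAAA and 61.9% the GC box. TATAA is in 13.8% and the full CRE in 2.91%, and the Ptgs2 window has neither. The Ptgs1 window has none of the 7 motifs, which says only that these letters are not in these bases.

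The Ptgs2 transcript carries many copies of ATTTA, the core of the AU-rich elements that RNA-binding proteins use to shorten or lengthen a transcript's life. Its longest annotated 3′ UTR (GENCODE M21, GRCm38) has 14 copies in 2445 bases, and 3.23% of 9506 tested genes with an annotated 3′ UTR have as many. Per length this is 5.73 copies per kb, a density reached by 1.35% of the 5342 tested 3′ UTRs of at least 1000 bases. The 30-base window with the most copies starts 12 bases into the 3′ UTR (chr1:150105794-150105823, plus strand) and holds 4, which overlap in the first run and are given in capitals.
Ptgs2 AU-rich window: ccatATTTATTTATTTAtgtgaagaATTTA

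The 3′ UTRs of Ptgs1 (921 bases), Ptgis (417 bases) and Ptges (3106 bases) have 0 copies of ATTTA. Those of Pla2g4a, Ptges2, Ptges3 and Hpgd have 4 each, and that of Ptgr1 has 1. The length differs between these genes: the 4 copies of Pla2g4a lie in 443 bases and those of Ptges2 in 3444. Per length Pla2g4a thus held more copies than Ptgs2, at 9.03 against 5.73 per kb, and Hpgd held 4.77.

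Because Dicer1 acts in miRNA processing, the 3′ UTRs of the 9 genes were also scanned for the seed matches of 10 mature miRNAs, each with its own seed. These were miR-101a-3p, miR-199a-3p, miR-26a-5p, miR-146a-5p, let-7a-5p, miR-27a-3p, miR-30a-5p, miR-103-3p, miR-29a-3p and miR-21a-5p. Poly(A) RNA was sequenced, so the miRNAs themselves were not measured. Ptgs2 had matches for 3 of the 10, and so did Ptges2 (miR-146a-5p, miR-103-3p and miR-29a-3p) by its longest GENCODE 3′ UTR. The Ptges2 matches for miR-103-3p and miR-29a-3p lie past the end of its RefSeq model (chr2:32402740), and the miR-146a-5p match lies inside it. Ptges, Ptges3, Hpgd and Ptgr1 also had matches, and Pla2g4a, Ptgs1 and Ptgis had none. The 3′ UTRs of the genes without a match span 443, 921 and 417 bases, against 2445 for Ptgs2 and 3444 for Ptges2. Only the Ptgs2 sites are printed. The miRNAs are from RefSeq with the seed (bases 2 to 8) in capitals, and each site has the seed match in capitals.
miR-101a-3p: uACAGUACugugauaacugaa
Ptgs2 site for miR-101a-3p: tcattatcagctgagGTACTGTatatt
miR-26a-5p: uUCAAGUAauccaggauaggcu
Ptgs2 site 1 for miR-26a-5p: attttgatatctttaTACTTGAatttc
Ptgs2 site 2 for miR-26a-5p: tattcatattttctcTACTTGAagttt
miR-103-3p: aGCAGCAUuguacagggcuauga
Ptgs2 site for miR-103-3p: gttacaagatgaaaaATGCTGCaggta

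The miR-101a-3p site lies at chr1:150107386-150107412, the miR-26a-5p sites at chr1:150106013-150106039 and chr1:150107082-150107108, and the miR-103-3p site at chr1:150106095-150106121, all on the plus strand. An A follows the seed match in each of these 4 sites. Such matches are common: 11.6% of the 9506 tested 3′ UTRs hold the miR-101a-3p match, 11.4% the miR-26a-5p match and 13.1% the miR-103-3p match. A match is a run of letters, and binding was not measured.

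Dicer1, the targeted gene, was lower in each DICER_KO library than in each control. It read 6.14, 6.09 and 6.14 log2 CPM in controls 1 to 3 and 5.43, 5.47 and 5.49 in DICER_KO replicates 1 to 3, and so fell by 0.66 log2 units (SE 0.10, adjusted p = 0.015 in limma). Its RNA thus stood at 0.633 times the control level, and the loss of miRNA processing was not measured. The libraries held 13569034 to 30268077 reads on the genes of the table. DICER_KO replicate 3 stood apart from replicates 1 and 2. The 12 mature adipocyte markers had a median deviation from the control mean of 0.59 and 0.58 log2 units in replicates 1 and 2 and of -1.18 in replicate 3, and their summed level was 7869 to 9782 CPM in controls and 12712, 12488 and 3994 CPM in DICER_KO. All 12 were expressed in every library. With replicate 3 left out, 9 of the 12 were called higher, where 1257 of all 10054 tested genes were. Preadipocyte and stromal markers (11 of 12 in the table, none at 0 reads in any library) summed to 7847 to 8988 CPM in controls and 4373 to 5424 CPM in DICER_KO, and of the 9 tested Col3a1 was the one called with all libraries (-1.44 log2 units, adjusted p = 0.00856). Thy1, Col1a1 and Dcn were also lower in each DICER_KO library (-0.46, -0.70 and -0.81 log2 units, limma adjusted p = 0.112, 0.0814 and 0.0814). The rest, Pdgfra, Pdgfrb, Ly6a, Cd34 and Dlk1, overlapped between groups (-0.06, 0.02, -0.05, -0.04 and 0.29 log2 units), and the median of the 9 was -0.06. Without replicate 3, 4 of the 9 were called lower, where 726 of all 10054 tested genes were. Mesothelial and smooth muscle markers (7 of 8 in the table, none at 0 reads) summed to 460 to 597 CPM in controls and 370 to 472 CPM in DICER_KO. All 5 tested were below 0 (median -0.45 log2 units, 0 called). Of those too low to test, Myh11 overlapped between groups and Msln was higher in every DICER_KO library. Msln had 7, 4 and 3 reads in controls and 22, 13 and 23 in DICER_KO (1.79 log2 units). Without replicate 3, 3 of the 5 were called lower, beside the same 726 of all tested genes. Macrophage and leukocyte markers (7 of 12 in the table) summed to 33.8 to 38.7 CPM in controls and 38.6 to 39.8 CPM in DICER_KO, with Fcgr1 and Cx3cr1 at 0 reads in at least 1 library. Endothelial markers (5 of 8, Cdh5 at 0 reads in control 2) summed to 5.54 to 6.41 CPM in controls and 6.85 to 8.88 CPM in DICER_KO. The 2 tested went opposite ways. Tek was higher in every DICER_KO library (0.67 log2 units, limma adjusted p = 0.118). Kdr had a lower mean but overlapped (-1.39 log2 units, limma adjusted p = 0.319). Without replicate 3 Tek differed by 0.68 and Kdr by -2.07 log2 units (limma adjusted p = 0.0194 and 0.013). In bulk libraries fewer cells that express a gene and less RNA per cell cannot be told apart.

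Per length of transcript, the synthases Ptges, Ptges3 and Ptgis stood highest and the dehydrogenase Hpgd lowest. Levels between genes are given in CPM per kilobase of merged exons, as mean ± SD over 3 control libraries. Ptges stood at 63.1 ± 4.32 and Ptges3 at 61.3 ± 11.1 CPM per kb, and their libraries overlapped. Ptgis followed at 43.8 ± 3.85 CPM per kb, below every control library of Ptges3. Ptgr1 (21.2 ± 0.778), Ptgs2 (21.0 ± 3.5) and Ptgs1 (16.3 ± 1.78 CPM per kb) formed a middle tier in which each overlapped the next. Ptges2 (8.35 ± 0.767) and Pla2g4a (7.55 ± 1.05 CPM per kb) overlapped as well. Hpgd stood at 0.159 ± 0.0128 CPM per kb, below every other member in every library.

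In the DICER_KO libraries the same genes were at the top and at the bottom, at 71.2 ± 6.35 CPM per kb for Ptges3, 65.3 ± 6.57 for Ptges, 35.6 ± 3.18 for Ptgis and 0.223 ± 0.0614 for Hpgd (SD, n = 3). The middle tier came apart: Ptgr1 stood at 19.5 to 21.9 CPM per kb, above Ptgs2 at 13.4 to 15.7, and every DICER_KO library of Ptgs1 (12.9 ± 0.0604, SD, n = 3) stood below those of Ptgs2. The order depends on which exons are counted. Per length of the longest coding transcript Pla2g4a came to 16.9 CPM per kb in controls in place of 7.55, since its merged exons span 6391 bases and its longest coding transcript 2856, and it then stood above Ptges2. On that length Ptgs1 (22.1 CPM per kb in controls, 17.5 in DICER_KO) stood above Ptgs2 (21.6 and 15.1), the reverse of the order by merged exons. The RefSeq model of Ptges2 ends before part of its GENCODE 3′ UTR, so its level per length would be higher if only RefSeq exons had been counted.

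**Figure D1:**
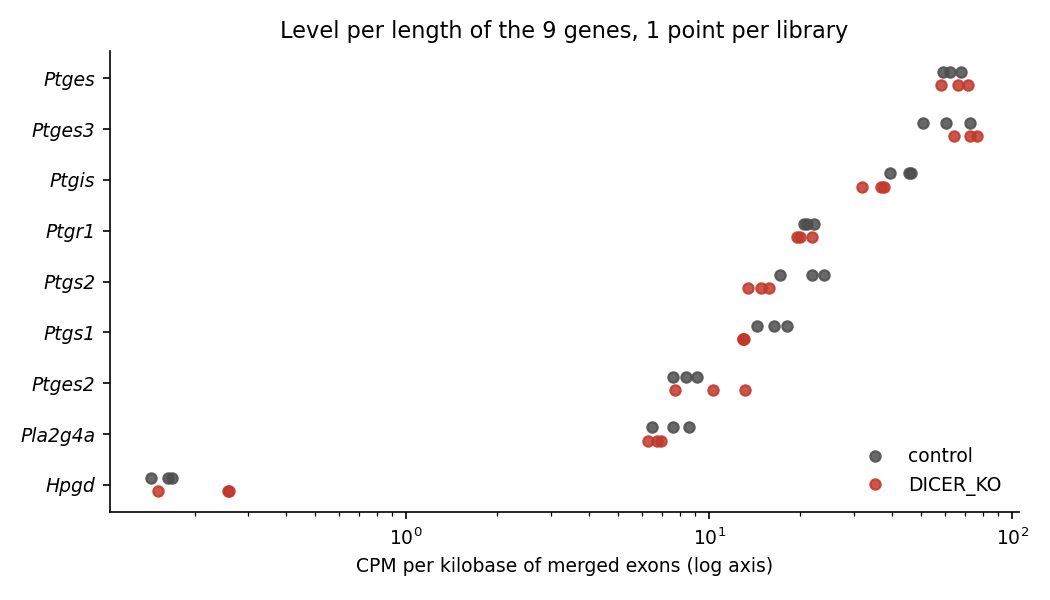
Level of each of the 9 genes in CPM per kilobase of merged exons (horizontal log axis), with 1 point per library for 3 control and 3 DICER_KO libraries. Ptges and Ptges3 lie above 50 CPM per kb in all 6 libraries, and Hpgd lies below 0.3 in all 6.

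None of the 8 tested genes passed the threshold. With limma (adjusted p under 0.05 over all genes tested) 0 of 8 were called, where 0.438% of all tested genes were, and 3 of 8 had an unadjusted p under 0.05, where 15.8% of all tested genes did. limma-voom on the recovered reads also called 0 of 8, and 34 of all 10054 tested genes. In 3 of 8 (Ptgs1, Ptgs2 and Ptgis) every DICER_KO library was lower than every control, against 9.81% of all tested genes, and in 0 of 8 was every DICER_KO library higher, against 10.4%. The median difference was -0.12 log2 units over the 8 genes and 0.02 over all tested genes.

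**Figure D2:**
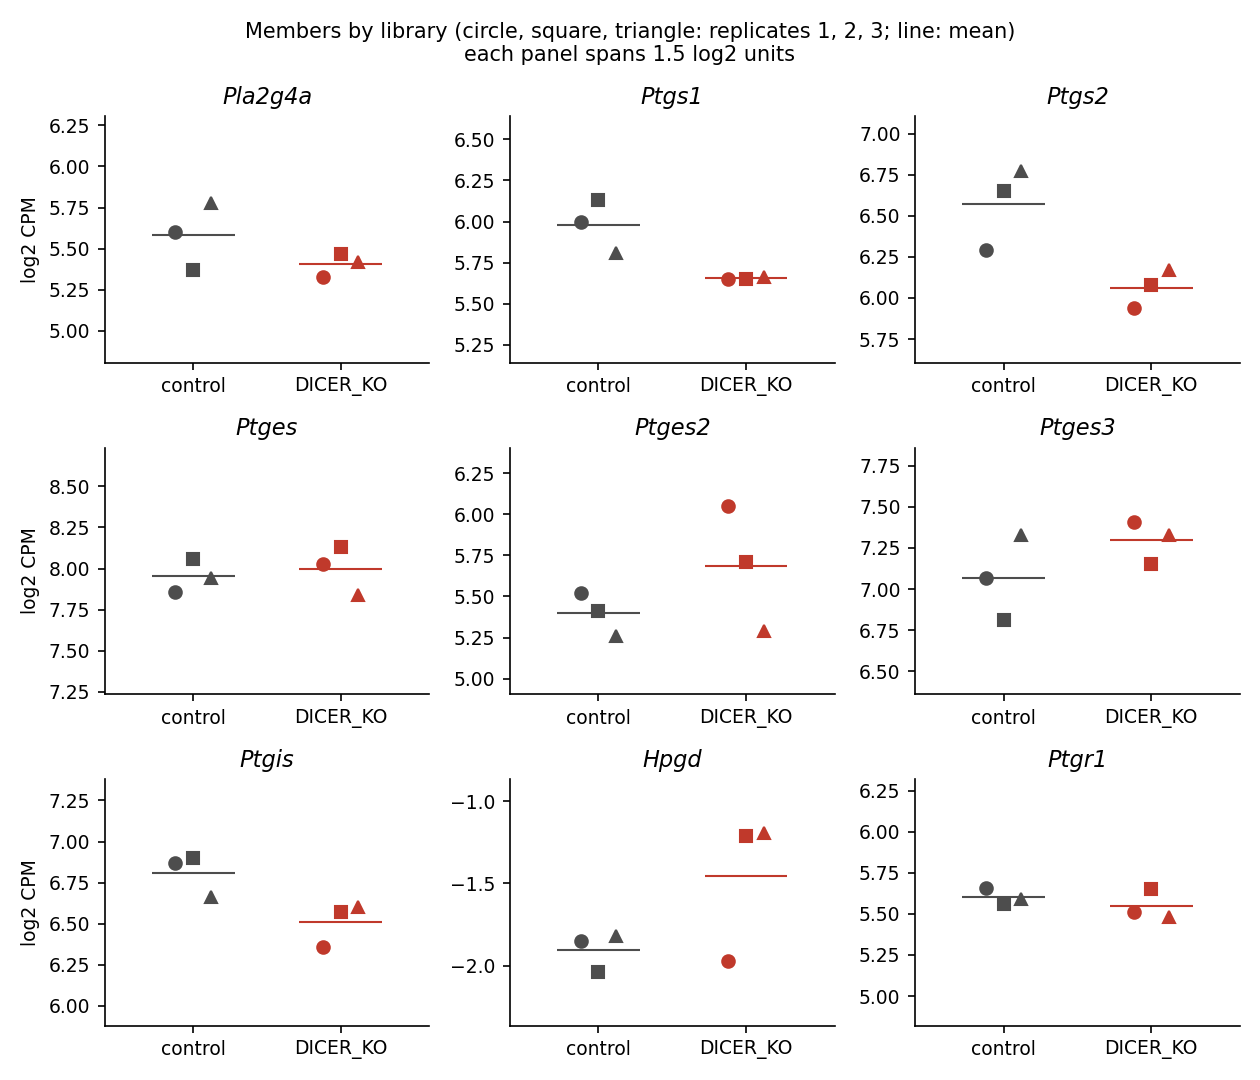
Log2 CPM (vertical axis, each panel spanning 1.5 log2 units) of the 9 genes in 3 control and 3 DICER_KO libraries, with symbols for replicates 1, 2 and 3 and a line at each group's mean. The DICER_KO points of Ptgs1, Ptgs2 and Ptgis all lie below the control points of the same gene, and in the other 6 genes the groups overlap.

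The first step of the pathway differed by less than its spread. Pla2g4a (Entrez 18783, chr1:149829618-149961290), the cytosolic phospholipase A2 that frees arachidonic acid, read 5.60, 5.37 and 5.78 log2 CPM in controls and 5.33, 5.47 and 5.42 in DICER_KO. The groups overlapped, with control 2 lower than replicates 2 and 3 of DICER_KO. The difference, DICER_KO minus control, was -0.18 on the log2 scale (SE 0.12, 95% interval -0.45 to 0.10, limma adjusted p = 0.47), and the interval runs from 0.733 to 1.07 times the control level.

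Both cyclooxygenases, which make prostaglandin H2 from arachidonic acid, were lower in each DICER_KO library than in all controls, and neither difference passed the adjusted threshold. Ptgs2 (Entrez 19225, chr1:150100031-150108234), the inducible isozyme, read 6.29, 6.65 and 6.77 log2 CPM in controls and 5.94, 6.08 and 6.17 in DICER_KO. The highest DICER_KO library lay under the lowest control. The difference was -0.51 log2 units (SE 0.13, 95% interval -0.81 to -0.21, limma unadjusted p = 0.00336, adjusted p = 0.131), which is 0.703 times the control level (0.572 to 0.865), and Ptgs2 ranked 258th of 10054 genes by p. These values rest on 1839, 2274 and 2520 reads in controls and 1079, 1642 and 3052 in DICER_KO.

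Ptgs1 (Entrez 19224, chr2:36216742-36258593), the isozyme that most tissues keep on at a steady level, read 6.00, 6.13 and 5.81 log2 CPM in controls. In DICER_KO it read 5.65, 5.65 and 5.66, so the DICER_KO libraries lay close together and the controls were spread (5.65 ± 0.01 against 5.98 ± 0.16, SD, n = 3). The difference was -0.33 log2 units (SE 0.11, 95% interval -0.57 to -0.08, limma unadjusted p = 0.0135, adjusted p = 0.228), or 0.798 times the control level. The balance of the isozymes did not separate the groups. The log2 ratio of Ptgs2 to Ptgs1 per length was 0.06, 0.28 and 0.73 in controls and 0.05, 0.20 and 0.27 in DICER_KO, so the groups overlapped. Ptgs2 was the higher in all 6 libraries by merged exons, and by the longest coding transcript Ptgs1 had the higher mean in both groups.

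The prostaglandin E synthases did not share the direction of the cyclooxygenases. Ptges (Entrez 64292, chr2:30889471-30931020), the microsomal enzyme that is usually induced together with Ptgs2, read 7.86, 8.06 and 7.94 log2 CPM in controls and 8.03, 8.13 and 7.84 in DICER_KO. The groups overlapped, and the difference was 0.05 log2 units (SE 0.11, 95% interval -0.20 to 0.30, limma adjusted p = 0.842), an interval of 0.87 to 1.23 times the control level. Without DICER_KO replicate 2 its difference was -0.02.

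Ptges2 (Entrez 96979, chr2:32395890-32402740), the membrane-associated enzyme, read 5.52, 5.41 and 5.26 log2 CPM in controls and 6.05, 5.71 and 5.29 in DICER_KO. Replicates 1 and 2 of DICER_KO lay above all controls and replicate 3 lay among them. The difference was 0.29 log2 units (SE 0.17, 95% interval -0.09 to 0.67, limma adjusted p = 0.415), with replicate 3 left out 0.48 (adjusted p = 0.0118), and without replicate 1 it was 0.10.

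Ptges3 (Entrez 56351, chr10:128058982-128077254), the cytosolic enzyme, also known as the chaperone partner p23, read 7.07, 6.81 and 7.33 log2 CPM in controls and 7.41, 7.15 and 7.33 in DICER_KO. The groups overlapped (0.23 log2 units, SE 0.14, 95% interval -0.08 to 0.53, limma adjusted p = 0.421). A processed pseudogene, Ptges3-ps on chromosome 6, is annotated, and how reads shared with it were counted is not given in the sources used here.

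Ptgis, the cytochrome P450 that makes prostacyclin, was lower in every DICER_KO library. The gene (Entrez 19223, chr2:167203194-167252150) read 6.87, 6.90 and 6.66 log2 CPM in controls and 6.36, 6.57 and 6.60 in DICER_KO. The closest libraries of the groups were control 3 and DICER_KO replicate 3, at 6.66 and 6.60. The difference was -0.30 log2 units (SE 0.11, 95% interval -0.55 to -0.05, limma unadjusted p = 0.0231, adjusted p = 0.26), or 0.812 times the control level. The opposite-strand transcripts 1110018N20Rik and Gm14291 overlap it. Since neither the kit nor the counting is stated to use strand, their reads cannot be told apart from those of Ptgis. The same limit holds for Ptgs1 and Pla2g4a, which Gm43621 and n-R5s219 overlap on the opposite strand. On the same strand the processed pseudogene Gm13400 overlaps Ptges, and Gm45540 overlaps Hpgd.

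Balances between the enzymes were also read within libraries, by merged exons. The log2 ratio of Ptgs2 to Ptges per length was -1.79, -1.63 and -1.38 in controls and -2.31, -2.27 and -1.89 in DICER_KO, so it was lower in every DICER_KO library. The log2 ratio of Ptges to Ptgis was 0.38, 0.54 and 0.66 in controls and 1.06, 0.94 and 0.63 in DICER_KO, where replicate 3 lay among the controls. With 3 libraries against 3, an exact permutation test of a single ratio cannot go below p = 0.1, and none was run.

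Breakdown was measured through Ptgr1 and Hpgd. Ptgr1 (Entrez 67103, chr4:58965590-58987131), a reductase that acts on oxidised prostaglandins and on leukotriene B4, read 5.66, 5.56 and 5.59 log2 CPM in controls and 5.51, 5.65 and 5.48 in DICER_KO. It had the narrowest interval of the 8 tested genes, at -0.06 log2 units (SE 0.10, 95% interval -0.29 to 0.17, limma adjusted p = 0.783), or 0.82 to 1.12 times the control level. Hpgd (Entrez 15446, chr8:56294552-56321046), the dehydrogenase that starts prostaglandin inactivation, was near the limit of detection. It had 6, 5 and 6 reads in controls and 4, 10 and 18 in DICER_KO, or -1.85, -2.04 and -1.82 and -1.97, -1.21 and -1.19 log2 CPM. The groups overlapped, and a difference was not detectable at this depth.

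**Figure D3:**
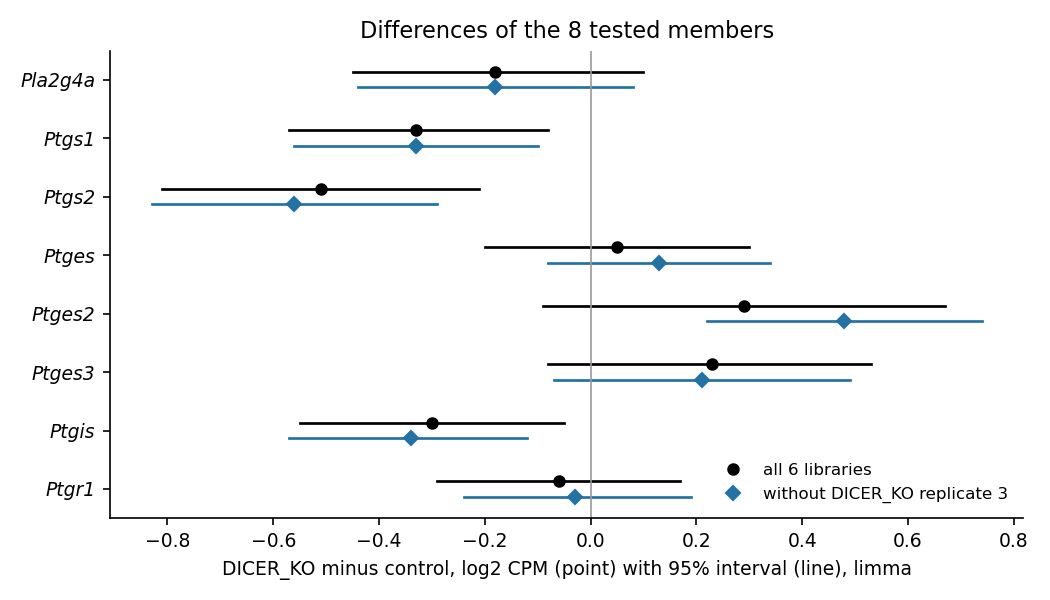
Difference DICER_KO minus control in log2 CPM (horizontal axis; point, limma estimate; line, 95% interval) for the 8 tested genes, with all 6 libraries and without DICER_KO replicate 3. The intervals of Ptgs1, Ptgs2 and Ptgis lie below 0 in both sets, and that of Ptges2 lies above 0 only without replicate 3.

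DICER_KO replicate 3 decided which genes were called. Without it 19.7% of all tested genes passed in limma, and 4 of the 8 did: Ptgs2 at -0.56 log2 units (adjusted p = 0.00592), Ptgs1 at -0.33 (0.0465), Ptgis at -0.34 (0.0349) and Ptges2 at 0.48 (0.0118). Leaving out any other single library called 0 of the 8. The values of the lower genes hardly depended on that library. Over 16 other ways of processing the same libraries the difference of Ptgs2 was -0.65 to -0.31, that of Ptgs1 -0.41 to -0.25 and that of Ptgis -0.37 to -0.22 log2 units, below 0 in all 16. Because every DICER_KO library of these genes lay below every control, leaving out or reweighting libraries could not change that sign. Pla2g4a and Ptgr1 were also below 0 in all 16.

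The genes differed in how replicate 3 compared with replicates 1 and 2. Their median deviation from the control mean was -0.17, -0.03 and -0.14 log2 units in DICER_KO replicates 1 to 3, beside 0.59, 0.58 and -1.18 for the mature adipocyte markers and -0.19, 0.01 and -0.52 for the preadipocyte and stromal markers. Ptgs2, Ptgs1 and Ptgis were below all controls in replicate 3 as in replicates 1 and 2. Ptges and Ptges2 were above the control mean in replicates 1 and 2 and below it in replicate 3. The summed stromal level, to which Col1a1, Col3a1 and Dcn gave most, was also lower in all DICER_KO libraries. Pdgfra, Pdgfrb, Ly6a and Cd34 of the same list differed by -0.06, 0.02, -0.05 and -0.04 log2 units. The 5 tested mesothelial and smooth muscle markers had differences below 0, while Msln of that list, too low to test, was higher in every DICER_KO library. The part of either marker group in the differences of Ptgs1, Ptgs2 and Ptgis was not tested.

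**Figure D4:**
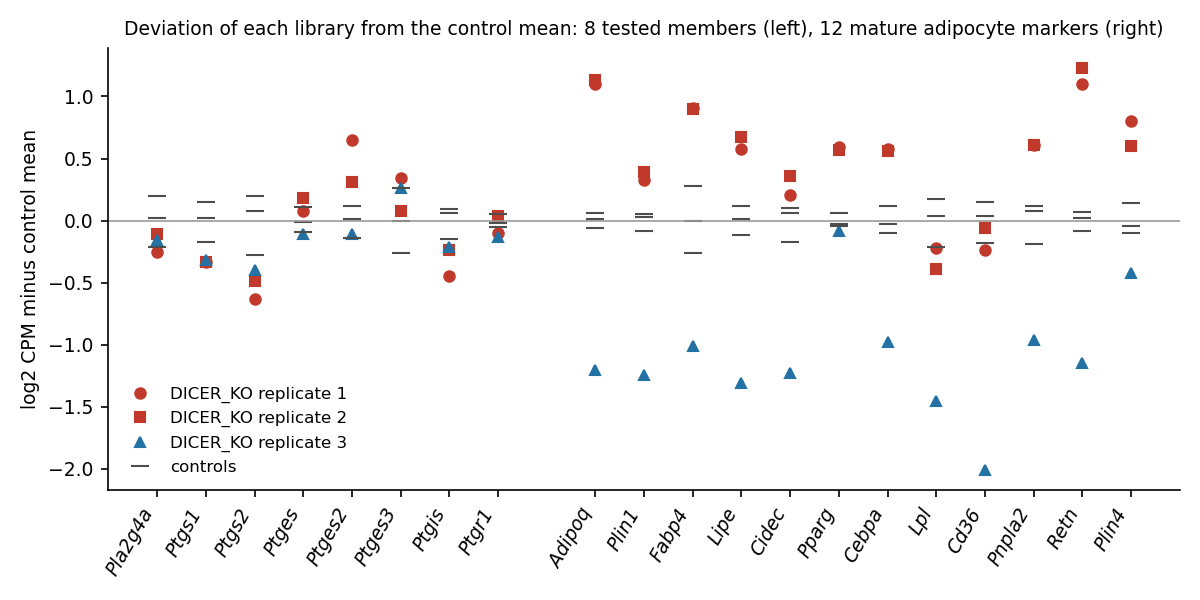
Deviation of each library from the mean of the controls in log2 CPM (vertical axis) for the 8 tested genes (left) and 12 mature adipocyte markers (right), with controls as dashes and DICER_KO replicates as circles, squares and triangles. For Ptgs1, Ptgs2 and Ptgis the 3 DICER_KO libraries lie together below 0, while for most markers replicate 3 lies below the controls and replicates 1 and 2 above.

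Pla2g4a and Ptgs2, which act in sequence, lie 138.7 kb apart on chromosome 1 with 2 RefSeq genes and 0 protein-coding genes between them. Another 4 of the 9 (Ptgs1, Ptges, Ptges2 and Ptgis) lie on chromosome 2. Beside Ptgs2 are non-coding RNAs, named here after their values were seen. Ptgs2os, whose end lies 156 bases from the start of Ptgs2, read 0.42, 0.43 and 0.66 log2 CPM in controls and 0.07, 0.28 and -0.06 in DICER_KO, on 18 to 40 reads a library (difference -0.41 log2 units, SE 0.26, limma adjusted p = 0.435). Ptgs2os2, which lies 50.8 kb away, stood at 2.31, 1.96 and 2.67 in controls against 2.16, 2.40 and 2.44 in DICER_KO (0.02 log2 units, adjusted p = 0.965). The groups of Ptgs2os did not overlap and those of Ptgs2os2 did.

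The genes whose log2 CPM ran most like that of Ptgs2 over the 6 libraries were Vwa1 (Pearson r = 0.993), Plod2 (0.991) and Sdf2l1 (0.988), and 22 tested genes had an r over 0.95. Plod2, a collagen-modifying lysyl hydroxylase, read 7.13, 7.42 and 7.66 log2 CPM in controls and 6.61, 6.87 and 6.94 in DICER_KO. Vwa1 and Sdf2l1 moved over a smaller range, from 1.20 to 1.55 and from 4.38 to 4.61. For Hpgd the 3 were Vps53 (0.997), Dock11 (0.987) and Hoxa11 (0.976), but its own pattern rests on 4 to 18 reads a library. With only 6 points from the same libraries these correlations are descriptions.

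Around the 9 genes, 7 lists of prostaglandin-related genes held 90 entries, of which 68 were in the table and 49 were tested. limma called 0 of the 49, with 6 at an unadjusted p under 0.05, where 15.8% of all tested genes were. limma-voom also called 0 of the 49, and 34 of all 10054 tested genes. Of the 49, 31 had a difference above 0 and 18 below, where 5304 of all tested genes lay above and 4750 below. Without DICER_KO replicate 3, 12 were called higher and 3 lower, where 1257 of all tested genes were called higher and 726 lower. The same background shares apply, 0.438% with all libraries and 19.7% without replicate 3.

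Among 5 tested prostanoid receptors (median difference -0.03 log2 units), Ptgfr, the receptor of prostaglandin F2α, had the smallest p of all 49 genes. It read 3.91, 3.68 and 4.15 log2 CPM in controls and 2.90, 3.28 and 2.83 in DICER_KO, with every DICER_KO library lower. The difference was -0.90 log2 units (SE 0.17, limma adjusted p = 0.0598), short of the threshold. Over 16 alternatives its adjusted p ran from 0.000186 to 0.211, and it passed in 6: library weights (-0.78), median centring (-0.94, 0.0387), quantile normalization (-0.93, 0.0362), no filter on low values (-0.90, 0.0469), a robust prior (-0.90, 0.0291) and the set without DICER_KO replicate 3 (-0.82, 0.00257). It missed the threshold in the other 10, at 0.104 to 0.196 without a control library and 0.0771 in limma-voom. Ptger4, a prostaglandin E2 receptor named after its values were seen, stood at 2.22, 2.07 and 2.21 in controls against 1.87, 1.36 and 2.01 in DICER_KO (-0.42 log2 units, adjusted p = 0.347). The prostacyclin receptor Ptgir stood at 4.37, 4.46 and 4.55 in controls against 4.60, 4.55 and 4.39 in DICER_KO, and so overlapped where its synthase Ptgis did not.

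Among 8 tested genes of transport and other breakdown (median 0.17 log2 units), Abcc4, an exporter of prostaglandins, had the smallest p. It read 6.17, 6.06 and 6.12 log2 CPM in controls and 6.90, 6.43 and 6.70 in DICER_KO, with every DICER_KO library higher (0.56 log2 units, SE 0.13, limma adjusted p = 0.0923, without replicate 3 adjusted p = 0.00565). Slco2a1, the uptake carrier, stood at 8.36, 8.43 and 8.10 in controls against 8.49, 8.39 and 8.52 in DICER_KO (0.17 log2 units, adjusted p = 0.447). The reductases Ptgr2 and Zadh2 differed by 0.41 and 0.31 log2 units with all libraries (adjusted p = 0.305 and 0.193) and were called higher without replicate 3 (0.65 and 0.33, adjusted p = 0.0004 and 0.0245). Slco2a1, Ptgr2 and Zadh2 were named after their values were seen.

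Among 10 tested genes that release arachidonic acid or its precursors (median 0.18 log2 units), Dagla, a diacylglycerol lipase, read 3.78, 3.85 and 3.72 log2 CPM in controls and 4.21, 4.20 and 4.01 in DICER_KO, again with every DICER_KO library higher (0.36 log2 units, limma adjusted p = 0.228, without replicate 3 0.42 and 0.0249). Some genes of this list followed replicate 3 instead, and 2 are named here after their values were seen. The adipocyte phospholipase Plaat3 (Pla2g16) stood at 5.79, 5.65 and 5.76 in controls against 6.62, 6.58 and 5.22 in DICER_KO. The monoacylglycerol lipase Mgll stood at 7.17, 6.96 and 7.12 in controls against 7.94, 7.92 and 6.18 in DICER_KO. In both, replicates 1 and 2 lay above all controls and replicate 3 below them, as in 10 of the 12 mature adipocyte markers (not Lpl and Cd36).

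Among 7 tested other terminal synthases (median 0.14 log2 units), the aldo-keto reductase Akr1b10 read 3.74, 4.02 and 3.74 log2 CPM in controls and 4.24, 4.40 and 3.87 in DICER_KO (0.34 log2 units, limma adjusted p = 0.332, without replicate 3 0.49 and 0.0189). Among 6 tested genes of the lipoxygenase and epoxygenase branches (median 0.00), Ephx2, the soluble epoxide hydrolase, stood at 6.43, 6.33 and 6.44 in controls against 8.46, 8.41 and 6.32 in DICER_KO. Its difference was 1.33 log2 units with all libraries (SE 0.44, adjusted p = 0.225) and 2.04 without replicate 3 (adjusted p = 1.56e-09), since replicate 3 lay below the controls. Among 5 tested genes of arachidonate supply (median 0.14), Lpcat2, an acyltransferase, stood at -0.34, -0.46 and 0.09 in controls against 0.22, 0.13 and 0.23 in DICER_KO (0.43 log2 units, adjusted p = 0.455).

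Among 8 tested regulators of the Ptgs2 transcript (median -0.04 log2 units), the AU-element binding protein Tia1 had the smallest p, at 5.53, 5.47 and 5.80 log2 CPM in controls and 5.87, 5.87 and 5.76 in DICER_KO (0.24 log2 units, limma adjusted p = 0.342). None of the 8 was called with or without replicate 3. In 2 of them, named after their values were seen, every DICER_KO library was lower than every control, as in 9.81% of all tested genes. Cebpb, a C/EBP factor, stood at 7.99, 7.94 and 7.96 in controls against 7.86, 7.74 and 7.75 in DICER_KO (-0.18 log2 units, adjusted p = 0.372). Nfkb1, a subunit of NF-kB, had a difference of -0.16 log2 units (adjusted p = 0.402).

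**Figure D5:**
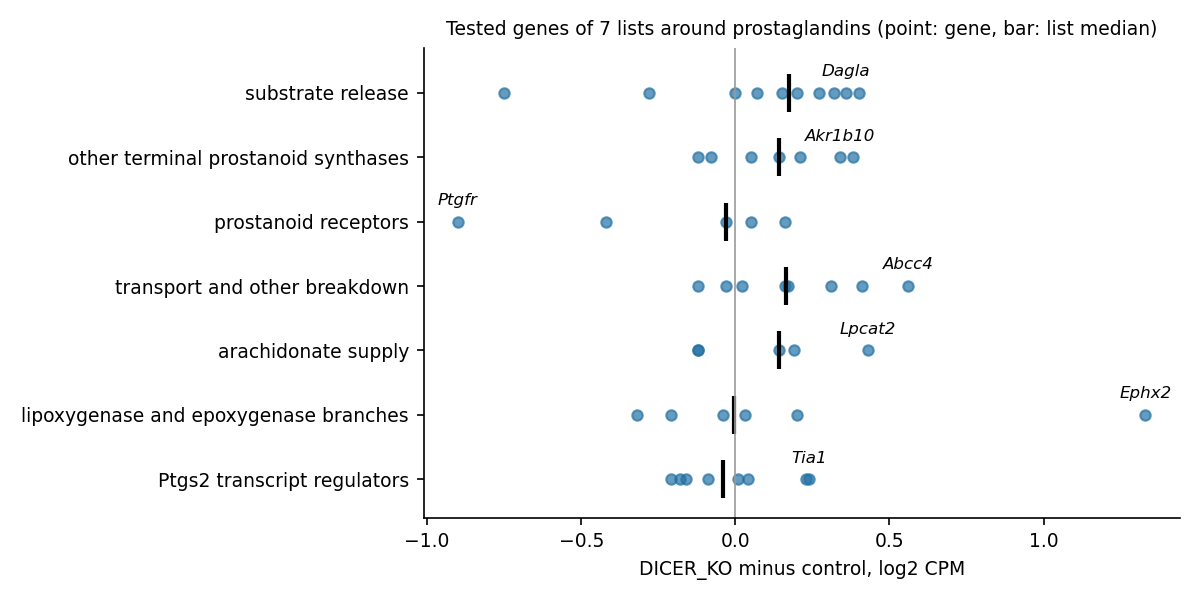
Difference DICER_KO minus control in log2 CPM (horizontal axis) of the 49 tested genes in 7 lists around prostaglandins, with 1 point per gene and a bar at each list's median. The medians lie between -0.04 and 0.18, with Ptgfr at -0.90 and Ephx2 at 1.33 farthest from 0.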

How the data were processed

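Poly(A) RNA of 6 cultures (3 control, 3 DICER_KO) was sequenced. The deposited values are log2 CPM per gene in 1 column per library. Of the tools, HISAT2, featureCounts and edgeR are named, with mm10 as a build, per the submitters' processing notes, and TMM scaling is named in the design text. Roles and versions are not given in the sources used here. Each deposited log2 value corresponds to a whole number of reads plus 0.5 over a library size (100% whole at a tolerance of 0.01 reads). Those sizes run from 17594568 to 42331787, and reads on the genes of the table came to 71.5 to 77.1% of them. The sizes may be TMM-scaled sizes rather than counts of reads, so these percentages may not be shares of reads. By reads on the table's genes, replicate 3 of DICER_KO is the deepest.

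limma 3.58.1 (R 4.3.3) with an intensity trend was fitted to the deposited values of 10054 genes (a minimum of 1 CPM in 3 or more libraries), with group as the only term, and p-values were adjusted by Benjamini-Hochberg over all of them (threshold 0.05). Differences understate changes of low genes. The test was checked on simulated data in which all genes varied alike between replicates and no library stood apart. That check does not show how the test behaves with a library like DICER_KO replicate 3. No pair of replicates was the same library: pairs of controls differed by a chi-square of 12.1 to 26.4 per degree of freedom, DICER_KO replicates 1 and 2 by 8.36, and replicate 3 from each of them by 85.5 and 92.9. Alternatives changed scaling, pseudocount, filter, variance model, library weights, test, replicate block and libraries. Levels per kilobase used merged GENCODE M21 exons. Symbols and gene coordinates are RefSeq's for GRCm38.p6 (13682 of 13734 Entrez IDs matched).

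The members, gene lists, motifs and miRNAs were chosen with earlier results of these data known. Besides the 9 members and Dicer1, the text names in each list the genes past the threshold or, where none passed, the one with the smallest p, and the 3 genes most correlated with Ptgs2 and with Hpgd. All others were named after their values were seen, and not each is marked so. Among the unmarked are Ptgir, the single cell type markers and the genes under Other observations. The within-library ratios between members were not among the results planned beforehand. The remaining steps and the plots used Python 3.11.15 with pandas 2.3.3, numpy 2.4.6 and matplotlib 3.10.9.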

Additional observations from a re-analysis of the deposited data

How the results depend on the processing

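Of the differences of the 8 tested genes, only that of Ptges changed sign over 16 alternatives, to -0.02 without DICER_KO replicate 2. Leaving out 1 library at a time gave Pla2g4a -0.28 to -0.08, Ptgs1 -0.41 to -0.25, Ptgs2 -0.65 to -0.41, Ptges -0.02 to 0.13, Ptges2 0.10 to 0.48, Ptges3 0.10 to 0.36, Ptgis -0.37 to -0.22 and Ptgr1 -0.11 to -0.03. The number of the 8 called ran from 0 to 4, of all genes from 1 (without control replicate 3) to 1983 (without DICER_KO replicate 3), and of genes in the 7 lists from 0 to 15. Library weights also brought calls: Ptgs1 (-0.35), Ptgs2 (-0.31), Ptges (0.20), Ptges2 (0.30) and Ptgis (-0.36) passed, 5 in all, with 26 list genes and 4484 genes overall. The estimate of those weights stopped before it converged, with weights from 0.2 to 7.54. Of all genes 19 passed without an intensity trend and 70 with a robust prior. In the lists 1 gene, Ptgfr, passed with median centring, quantile normalization, no filter or a robust prior. With the replicate number as a block 2 genes passed, 0 of the 8 among them. Same-numbered libraries did not deviate together (correlations 0.195, -0.014 and -0.079), so the numbers were not taken to pair the libraries. Per length of the longest coding transcript, levels in controls were 68.0 for Ptges, 53.4 for Ptgis, 22.1 for Ptgs1 and 16.9 CPM per kb for Pla2g4a. The cause of these shifts in calls was not tested. With 3 libraries a group the 95% intervals of the 8 genes reach from 0.572 (Ptgs2) to 1.59 times the control level (Ptges2), and Hpgd lay too low for a test.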

Other observations

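Several genes of prostanoid and leukotriene signalling were detected in only a few reads, so that their groups cannot be compared. Ptger3, the prostaglandin E2 receptor known for restraining lipolysis, had 5, 6 and 3 reads in controls and 2, 1 and 6 in DICER_KO. Hpgds, the haematopoietic prostaglandin D synthase, had 1, 3 and 4 reads in controls and 5, 0 and 3 in DICER_KO. Tbxas1, the thromboxane synthase, had 0, 1 and 4 reads in controls and 1, 0 and 0 in DICER_KO. Alox5, which starts leukotriene synthesis, had 7, 5 and 3 reads in controls and 4, 1 and 2 in DICER_KO. By contrast Ltc4s, the leukotriene C4 synthase, read 4.08, 3.90 and 3.84 log2 CPM in controls and 4.57, 4.35 and 3.00 in DICER_KO, with replicates 1 and 2 above all controls and replicate 3 below them.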
